A study of Mus musculus with 8 samples.

Results

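The gelsolin family is a group of 7 genes that encode actin-binding proteins built from repeats of 1 domain, and it was followed here in pre-BII cells of WT mice and of mice lacking OBF-1, Aiolos or both. The family was read on 15 of the 22626 non-control probe sets of the array, 6 of them for Gsn, 1 for Scin, 1 for Capg, 1 for Vil1, 3 for Flii, 1 for Avil and 2 for Svil. The members were chosen by gene name, with every probe set annotated to 1 of the 7 genes. Gsn and Scin were picked for their rise on the double-mutant arrays of this series, so every value of theirs that uses the double mutant is given as a description, without a test. The other 5 genes, with 8 probe sets, were taken as relatives of these and were tested throughout.

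Each genotype was measured on 2 MOE430A arrays, 8 arrays in all: WT, OBF-1 (the OBF-1 deletion), Aiolos (the Aiolos deletion) and Aiolos OBF-1 (both deletions, called the double mutant here). All mice were Bl6 and 7 weeks old. GEO's labels call the material bone marrow and, for the mutants, name a single mouse, whereas the methods describe sorted B220+ CD25+ pre-BII cells from independent pools of mice, and nothing in the files settles which holds. The deletions are carried by every cell of the animal. OBF-1 is a B cell coactivator that acts with the octamer-binding factors Oct-1 and Oct-2, and Aiolos is a zinc finger factor of the Ikaros family.

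Members of this family bind the sides and the fast-growing ends of actin filaments. Gelsolin and scinderin, also called adseverin, cut filaments when calcium rises and then stay on the new end as a cap, and membrane phosphoinositides release them. CapG caps ends without cutting, villin and advillin can also bundle filaments, and flightless and supervillin are larger relatives that work partly as scaffolds at the nucleus, the membrane and in transcription. Actin turnover of this kind underlies cell shape, migration and receptor movement in B cells.

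The intensities are RMA values on a linear scale, and a difference is a difference between mean log2 values, so that a fold is a ratio of geometric means. A probe set was called at a limma adjusted p under 0.05, with Benjamini-Hochberg adjustment over all 22626 probe sets. The WT and OBF-1 arrays were processed on fluidics station 2 and the Aiolos and double-mutant arrays on station 1. OBF-1 against WT and the double mutant against Aiolos therefore lie within a station, while in Aiolos against WT, the double mutant against WT, the double mutant against OBF-1 and Aiolos against OBF-1 station and genotype cannot be told apart. The interaction, which is the double-mutant change minus the changes of both single mutants, cancels a station effect that adds on the log2 scale.

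Arrays of a genotype correlated with r from 0.9961 to 0.9965 and arrays of different genotypes from 0.9878 to 0.9946. Pou2af1, the gene of OBF-1, read 2434 to 2842 on the 4 WT and Aiolos arrays and 170.1 to 272.9 on the 4 arrays of mice lacking OBF-1. Of the 13 pre-B cell markers 12 were measured, summing to 28483 to 34810 on the 8 arrays, with Cd79a at means of 7103 to 8859 and Il2ra, the CD25 gene, at 420.7 to 664.2. The sum joins opposed changes. In the double mutant against WT 4 of the 12 were called higher and 3 lower, against 4.9% and 4.13% of genes across the array. Igll1 read 327.4 and 280.6 in WT and 5904 and 5408 in the double mutant. Vpreb3 read 5997 and 5822 in WT and 1759 and 1836 in the double mutant. Some markers of granulocytes and monocytes were also high on all 8 arrays, with S100a9 at means of 5990 to 7228 and Ngp at 4244 to 6655. Others were low, with Csf1r at 205.3 to 305.3 and Fcgr3 at 76.3 to 121.5. How pure the sort was, was not tested. Fewer cells of a type and less RNA per cell cannot be told apart in such samples.

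The 250 bases before the RefSeq start sites (GRCm38.p6) are shown for Gsn and Scin, which were highest in the double mutant, for Capg, which was lower there, and for Avil, whose window was the one that held the octamer core among those of the 6 genes searched, Svil not being among them. Capitals mark TTTGCAT, the core of the octamer to which OBF-1 is recruited, and GGGAA, the core of Ikaros family sites, each searched on both strands, so that ATGCAAA and TTCCC are the same motifs read from the other strand. The 2 motifs share no overlapping match in these windows. Each sequence runs 5′ to 3′ along the gene and ends at the base before the start.
Gsn start 1, chr2:35256109-35256358, plus strand: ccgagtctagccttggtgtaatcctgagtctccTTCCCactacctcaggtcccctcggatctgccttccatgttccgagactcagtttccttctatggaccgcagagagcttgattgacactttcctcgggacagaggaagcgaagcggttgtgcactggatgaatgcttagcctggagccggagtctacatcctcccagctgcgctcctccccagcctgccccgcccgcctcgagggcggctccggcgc
Gsn start 2, chr2:35266494-35266743, plus strand: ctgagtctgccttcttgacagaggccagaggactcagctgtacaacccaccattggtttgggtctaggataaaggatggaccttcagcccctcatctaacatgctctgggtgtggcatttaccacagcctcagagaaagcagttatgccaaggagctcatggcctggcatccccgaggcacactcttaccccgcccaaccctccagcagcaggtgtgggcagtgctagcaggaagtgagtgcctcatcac
Gsn start 3, chr2:35282130-35282379, plus strand: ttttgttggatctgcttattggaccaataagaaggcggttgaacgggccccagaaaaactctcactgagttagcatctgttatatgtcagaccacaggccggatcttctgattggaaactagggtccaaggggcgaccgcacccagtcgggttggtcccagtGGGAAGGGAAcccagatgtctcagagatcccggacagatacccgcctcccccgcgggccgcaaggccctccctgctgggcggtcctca
Scin, chr12:40134229-40134478, minus strand: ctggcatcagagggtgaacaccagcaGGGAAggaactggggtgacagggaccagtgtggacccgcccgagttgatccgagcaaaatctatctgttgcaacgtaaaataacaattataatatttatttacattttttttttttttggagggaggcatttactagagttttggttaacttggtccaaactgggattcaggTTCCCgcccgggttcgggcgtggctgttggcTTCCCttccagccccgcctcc
Capg, chr6:72549397-72549646, plus strand: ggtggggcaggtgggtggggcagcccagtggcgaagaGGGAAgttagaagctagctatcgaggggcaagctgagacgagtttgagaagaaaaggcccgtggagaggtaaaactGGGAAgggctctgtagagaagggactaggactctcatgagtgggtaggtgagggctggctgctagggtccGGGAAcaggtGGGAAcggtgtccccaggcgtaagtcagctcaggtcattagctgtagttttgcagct
Avil, chr10:127000459-127000708, plus strand: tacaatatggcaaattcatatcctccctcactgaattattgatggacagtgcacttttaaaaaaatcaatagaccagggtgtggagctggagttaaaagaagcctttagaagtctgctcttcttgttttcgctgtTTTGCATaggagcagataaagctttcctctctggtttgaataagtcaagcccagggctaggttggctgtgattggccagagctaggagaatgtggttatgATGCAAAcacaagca

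TTTGCAT was found in none of the Gsn, Scin, Capg, Vil1 and Flii windows, and 2 times in that of Avil, with its first base 115 and 15 bases before the start. Of all 32851 windows of this length, 4.12% held it. GGGAA was found 3 times for Scin, at 224, 52 and 21 bases before the start, 4 times for Capg and 3 times for Vil1. It was found 2 times before Gsn start 3, at 88 and 83 bases, once before Gsn start 1 and once for Flii, but not before Gsn start 2 or Avil. Since 56.2% of all windows hold GGGAA, its presence sets none of these genes apart, and a match is a run of letters and not a binding site. Gsn is known for a secreted and a cytoplasmic form made from different first exons, which the array does not separate.

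**Figure D1:**
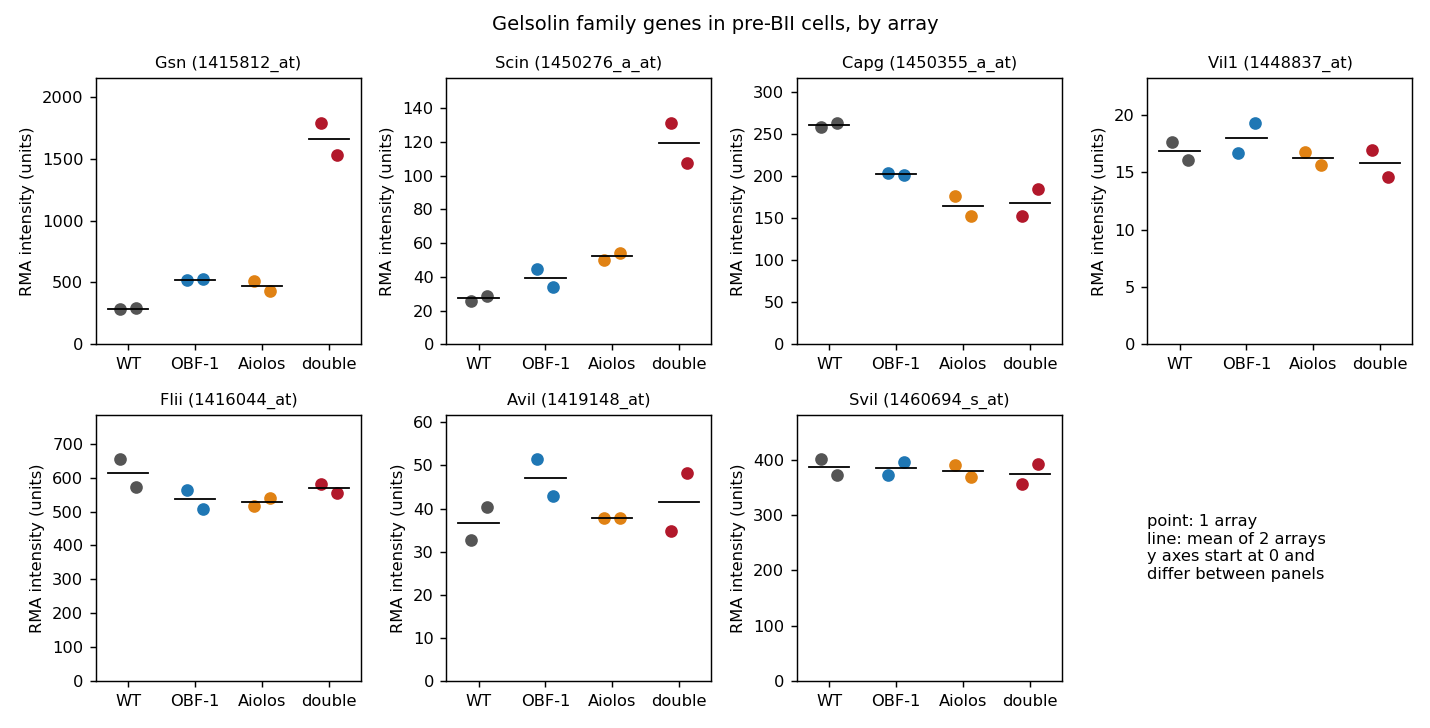
RMA intensity (units, linear scale from 0) of the 7 family genes on each of the 8 arrays, at the probe set of highest mean intensity for each gene. Points are single arrays and lines are the means of 2 arrays. Gsn and Scin lie highest on both double-mutant arrays, Capg lies below WT on all 6 mutant arrays, and the points of Vil1, Flii, Avil and Svil differ little between genotypes.

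Gsn, the gene of gelsolin, read 287.1 and 290.4 on the WT arrays at probe set 1415812_at, the one with the highest signal. It read 515.6 and 526.7 on the OBF-1 arrays, 510.2 and 434.5 on the Aiolos arrays, and 1792 and 1532 on the double-mutant arrays. All single-mutant arrays lay above both WT arrays, and both double-mutant arrays lay far above all 6 others. Aiolos replicate 1 lay just below the OBF-1 arrays and Aiolos replicate 2 further below them.

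In the OBF-1 single mutant, compared within a station, Gsn was 1.80-fold higher at this probe set, a log2 difference of 0.85 (SE 0.109, limma adjusted p = 0.00124). Over the whole family 5 of 15 probe sets were higher in OBF-1 than in WT and 0 were lower, and all 5 were Gsn's. Across the array 2.09% of probe sets were called in this comparison. The Gsn differences were 0.94 at 1456312_x_at (SE 0.0946, adjusted p = 0.000184 from limma), 0.62 at 1437171_x_at (adjusted p = 0.0103), 0.58 at 1436991_x_at (adjusted p = 0.00478) and 0.48 at 1456569_x_at (adjusted p = 0.0163). The sixth, 1456568_at, gave 0.093 (adjusted p = 0.745). These probe sets measure 1 gene and are not independent of each other, and those whose names end in x_at can also bind other transcripts.

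OBF-1 replicate 2 had the highest granulocyte and erythroid marker sums. Without it the Gsn differences from WT were 0.84 at 1415812_at, 0.97 at 1456312_x_at and 0.47 at 1437171_x_at. They were 0.53 at 1436991_x_at and 0.48 at 1456569_x_at. A fit without 1 WT or OBF-1 array leaves 1 array in that genotype and made fewer calls across the array, so lost calls are not particular to Gsn. With any 1 array left out, 1415812_at and 1456312_x_at still passed. 1437171_x_at did not pass without WT replicate 1 (limma adjusted p = 0.0998), WT replicate 2 (0.0576) or OBF-1 replicate 2 (0.102), and 1436991_x_at not without OBF-1 replicate 2 (0.0602). 1456569_x_at, where every array read 10.7 to 18.1, did not pass without either WT array (0.0803 and 0.119) or either OBF-1 array (0.0942 and 0.0993).

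In the Aiolos single mutant Gsn rose at 2 of its probe sets, by a log2 of 0.71 at 1415812_at (SE 0.109, limma adjusted p = 0.0108) and of 0.66 at 1456312_x_at (adjusted p = 0.00715). The other 4 gave 0.36, 0.19, 0.17 and 0.12, with adjusted p from 0.112 to 0.549. Over the family 3 of 15 probe sets were higher and 1 was lower in Aiolos than in WT, against 1.84% called across the array. This comparison crosses the stations, and both single-mutant comparisons share their WT arrays with each other and with the double-mutant comparison for which Gsn and Scin were picked. The call at 1415812_at was lost without WT replicate 1 (adjusted p = 0.106), WT replicate 2 (0.0535) or Aiolos replicate 1 (0.113), and that at 1456312_x_at without WT replicate 1 (0.0931) or Aiolos replicate 1 (0.0639). Set directly against the OBF-1 single mutant, Aiolos arrays differed at 1 of 15 family probe sets, Gsn 1436991_x_at at -0.39 (adjusted p = 0.0377), where 2.77% were called across the array. That call was lost on leaving out any WT, OBF-1 or Aiolos array, with adjusted p from 0.0564 to 0.213.

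On the double-mutant arrays the 4 brighter Gsn probe sets lay above WT by log2 differences of 2.52 (SE 0.109), 2.24 (SE 0.106), 2.52 (SE 0.0946) and 1.78 (SE 0.0883), at 1415812_at, 1437171_x_at, 1456312_x_at and 1436991_x_at. As folds these were 5.74, 4.73, 5.74 and 3.44. At 1437171_x_at the arrays read 177.8 and 187.3 in WT, 253.1 and 309.8 in OBF-1, 233.8 and 233.5 in Aiolos, and 882.7 and 845.4 in the double mutant. At 1456312_x_at they read 94.7 and 108.0, 197.5 and 191.0, 158.6 and 162.0, and 580.6 and 580.0, in the same order. At all 4 every single-mutant array lay between the WT and the double-mutant arrays. Of all 22626 probe sets, 1415812_at ranked 8th in the double mutant against WT.

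The low probe sets differed less. 1456569_x_at kept the order of the arrays but read only 17.0 and 18.1 in the double mutant against 15.4 and 15.3 in OBF-1, and 1456568_at read between 10.1 and 11.5 on all 8 arrays. With values this far under 100 they carry little signal. The study used 100 as its lower intensity limit, but its methods name the Affymetrix Microarray suite and GeneSpring. That limit may therefore belong to another scale than the RMA values read here.

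**Figure D2:**
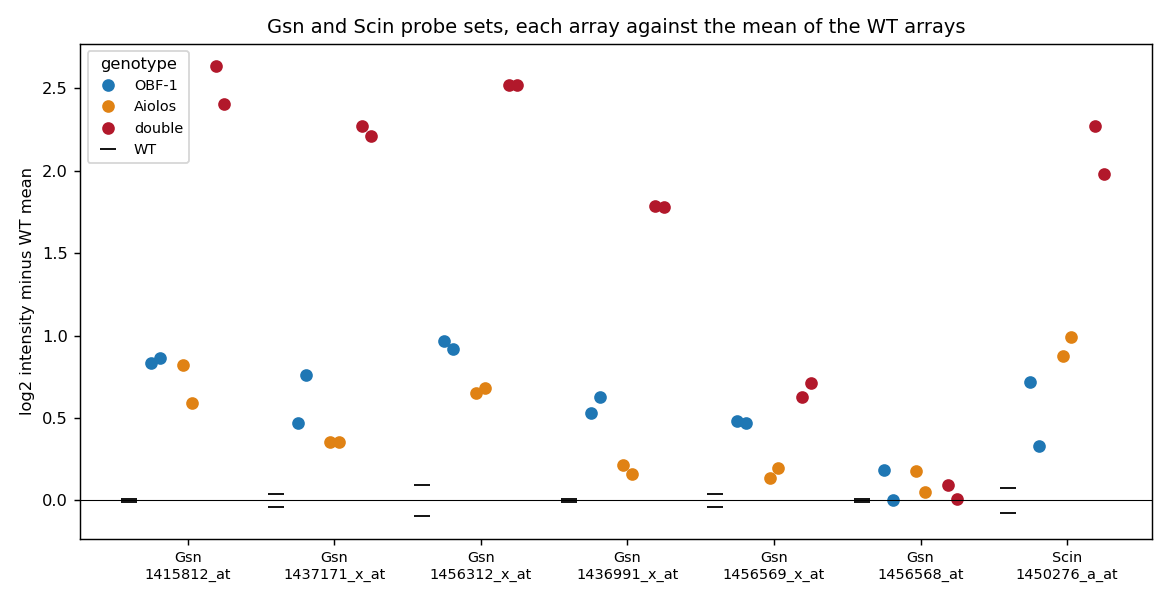
Log2 intensity minus the WT mean for the 6 Gsn probe sets and the Scin probe set. Points are single mutant arrays and dashes are the WT arrays. At 4 Gsn probe sets and at Scin both double-mutant arrays lie above every other array by a wide margin, while Gsn 1456569_x_at and 1456568_at do not show it.

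The effect of losing OBF-1 can be read with Aiolos present and with Aiolos absent, each within a station. For Gsn 1415812_at the log2 step was 0.85 with Aiolos present and 1.81 with Aiolos absent, a difference of 0.96 (SE 0.154). The same difference was 1.27 at 1437171_x_at (SE 0.150), 0.91 at 1456312_x_at (SE 0.134) and 1.01 at 1436991_x_at (SE 0.125). On the linear scale the double-mutant means were 2.36, 2.60, 2.29 and 2.10 times the WT mean plus both single-mutant changes for 1415812_at, 1437171_x_at, 1456312_x_at and 1436991_x_at. These are descriptions, because Gsn was chosen for its double-mutant level.

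Scin, the gene of scinderin, also severs filaments, and 1 probe set read it. It gave 25.8 and 28.7 on the WT arrays, 44.8 and 34.1 on OBF-1, 50.0 and 54.1 on Aiolos, and 131.5 and 107.4 on the double mutant. The 4 genotypes did not overlap, and Scin reached 100 only in the double mutant.

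Scin rose in the Aiolos single mutant by a log2 of 0.94 (SE 0.138, limma adjusted p = 0.00848), a 1.91-fold difference that crosses the stations. In the OBF-1 single mutant it stood at 0.52 (SE 0.138) and did not pass (adjusted p = 0.0900), with a 95% interval from 0.22 to 0.83. Without OBF-1 replicate 2, the lower of the pair, it passed at 0.72 (adjusted p = 0.0479). The Aiolos call was lost without WT replicate 1 (0.106), Aiolos replicate 1 (0.0523) or Aiolos replicate 2 (0.0503). The single mutants differed from each other by 0.41 (adjusted p = 0.165), which did not pass.

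In the double mutant Scin lay 2.13 above WT on the log2 scale (SE 0.138), 4.37-fold, and 1.19 above Aiolos within station 1. The OBF-1 step was thus 0.52 with Aiolos present and 1.19 without it, a difference of 0.67 (SE 0.195). With 16 units added before the log, which damps low signals, the distance from WT was 1.64. On the linear scale the double-mutant mean was 1.86 times the WT mean plus both single-mutant changes.

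Capg, which caps filament ends without severing, moved the other way. It read 257.6 and 263.2 on the WT arrays, 203.5 and 201.2 on OBF-1, 176.7 and 152.7 on Aiolos, and 152.2 and 184.1 on the double mutant. All 6 mutant arrays lay below both WT arrays, and the Aiolos and double-mutant arrays overlapped.

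Capg fell by 0.66 on the log2 scale in Aiolos (SE 0.111, limma adjusted p = 0.0152) and by 0.64 in the double mutant (SE 0.111, adjusted p = 0.00377), which are folds of 0.631 and 0.643. It was the 1 probe set called of the 8 tested for the double mutant against WT, with 2 at an unadjusted p under 0.05 and 8.57% called across the array. In OBF-1, within station 2, the difference was -0.36 (adjusted p = 0.152, interval -0.61 to -0.12). Within station 1 the double mutant and Aiolos differed by 0.027 (adjusted p = 0.933), with a 95% interval from -0.22 to 0.27. Both Capg calls cross the stations, and neither within-station comparison called it. The double-mutant call held with any 1 array left out, while the Aiolos call was lost without WT replicate 1 (0.114), WT replicate 2 (0.0686) or Aiolos replicate 2 (0.0927).

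Vil1, the gene of villin, which is known from the brush border of gut epithelium, read 14.6 to 19.3 on all 8 arrays. Avil, the gene of advillin, known from sensory neurons, read 32.8 and 40.4 in WT, 51.4 and 43.0 in OBF-1, 37.8 and 37.8 in Aiolos, and 34.7 and 48.2 in the double mutant. Neither gene reached 100 on any array, and neither was called in any of the 7 comparisons. The largest value for Avil was 0.37 in OBF-1 (limma adjusted p = 0.325), beside 0.11 in the double mutant against Aiolos (0.760). A link to the 2 octamer cores in its window was not tested.

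Flii, a gelsolin relative with a leucine-rich repeat part, gave 509.0 to 654.1 at 1416044_at, 509.9 to 577.2 at 1448189_a_at and 48.2 to 61.0 at 1439356_at. Its 3 probe sets, over 7 comparisons, ran from -0.30 to 0.30 with a lowest limma adjusted p of 0.270. Svil, which ties actin and myosin to the membrane, gave 356.8 to 400.8 at 1460694_s_at and 177.7 to 234.4 at 1460735_at. At 1460735_at the 4 arrays lacking Aiolos (214.2 to 234.4) lay above the 4 others (177.7 to 194.9), which is also the division by station. The difference was 0.28 in Aiolos (adjusted p = 0.146) and 0.25 in the double mutant (adjusted p = 0.149), and it did not pass.

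Within station 1, 0 of the 8 probe sets of Capg, Vil1, Flii, Avil and Svil were called between the double mutant and Aiolos by limma, and 0 had an unadjusted p under 0.05, where 2.95% were called across the array. Against OBF-1 the count was also 0 of 8, with 2 at an unadjusted p under 0.05, where 2.63% were called. In the interaction it was 0 of 8, with 1 at an unadjusted p under 0.05, which was Capg at 0.39 (adjusted p = 0.376), where 0.186% were called. For these 5 genes the double mutant was thus called apart from neither single mutant.

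**Figure D3:**
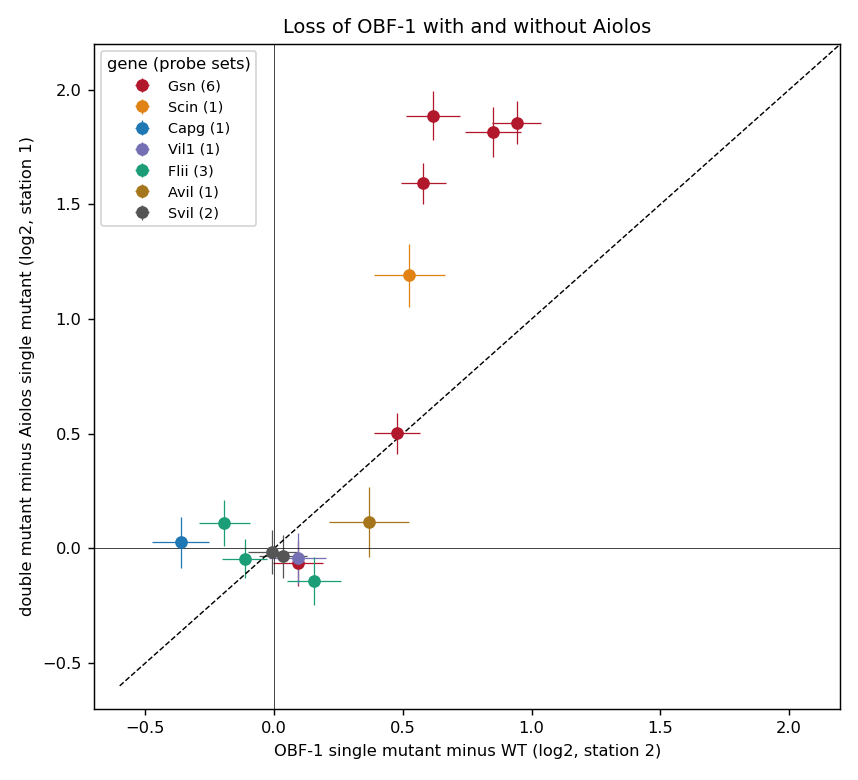
The log2 step on losing OBF-1 with Aiolos present (x axis, station 2) against the same step with Aiolos absent (y axis, station 1) for the 15 probe sets, with standard errors from limma and the line of equal steps dashed. Of the 6 Gsn probe sets 4 lie well above the line, Scin lies above it, and the probe sets of the other 5 genes lie near 0 on the y axis.

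Gsn is also strongly expressed outside the B lineage, as in platelets, myeloid cells and stroma, so the markers of such cells are given beside it. The 15 measured granulocyte and monocyte markers summed to 24949 and 25035 in WT, 30248 and 34403 in OBF-1, 28180 and 28889 in Aiolos, and 30800 and 31709 in the double mutant. In log2 terms the sum stood at most 0.46 above WT, on OBF-1 replicate 2. Of the 15, 4 were called higher in OBF-1 than in WT, 1 in Aiolos and 9 in the double mutant, with a largest difference of 0.65, against 1.15%, 1.02% and 4.9% of genes called higher across the array. Between the double mutant and Aiolos, where Gsn differed by 1.81, 0 of 15 were called, 4 had an unadjusted p under 0.05, and the largest difference was 0.39 at Fcgr3, against 1.92% of genes called higher.

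The 5 plasma cell markers had their highest sums on the double-mutant arrays, though not all 5 rose. They summed to 2954 and 2729 in WT, 3986 and 3752 in OBF-1, 3208 and 2913 in Aiolos, and 4180 and 4518 in the double mutant, which is 0.56 and 0.67 above WT on the log2 scale for the double mutant. Of the 5, 2 were called higher by limma in OBF-1 than in WT and 0 in Aiolos, the latter with 2 at an unadjusted p under 0.05. In the double mutant 2 were called higher against WT and 2 against Aiolos. Across the array 1.15%, 1.02%, 4.9% and 1.92% of genes were called higher in these comparisons, in the same order. The largest difference of the last comparison was 0.89 at Sdc1, and the lowest was -0.26 at Jchain. In the double mutant against WT the lowest was -0.19 at Prdm1. Much of each sum was Irf4, which read 1693 and 1493 in WT and 2445 and 2690 in the double mutant. It read 2331 and 2197 in OBF-1 and 1780 and 1640 in Aiolos. The paper reports Irf4 in pre-BII cells, so it is no marker of plasma cells alone. The paper also states, with data not shown, that its level was equal in all genotypes, which these values do not show.

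The 8 megakaryocyte and platelet markers summed to 507.8 to 599.4 over the 8 arrays, with the highest value on Aiolos replicate 1. The 10 stroma and endothelium markers summed to 616.0 to 790.1 and the 7 basophil and mast cell markers to 288.2 to 428.7. The 5 erythroid markers summed to 474.0 to 869.2 with OBF-1 replicate 2 highest and the 7 T cell markers to 288.1 to 342.4. The largest distance of any of these sums from its WT mean was 0.86 on the log2 scale, on OBF-1 replicate 2 for the erythroid markers. In the double mutant against WT 2 of the 8 platelet, 1 of the 10 stroma and 1 of the 5 erythroid markers were called higher. Across the array 4.9% of genes were. The largest differences were 0.57 at Gp5, 0.45 at Vcam1 and 0.69 at Klf1, and Gp5 and Vcam1 read under 100 on every array. Against Aiolos 0 markers of these lists were called higher, where 1.92% of genes were. The part of other cells in the Gsn, Scin and Capg values was not tested.

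**Figure D4:**
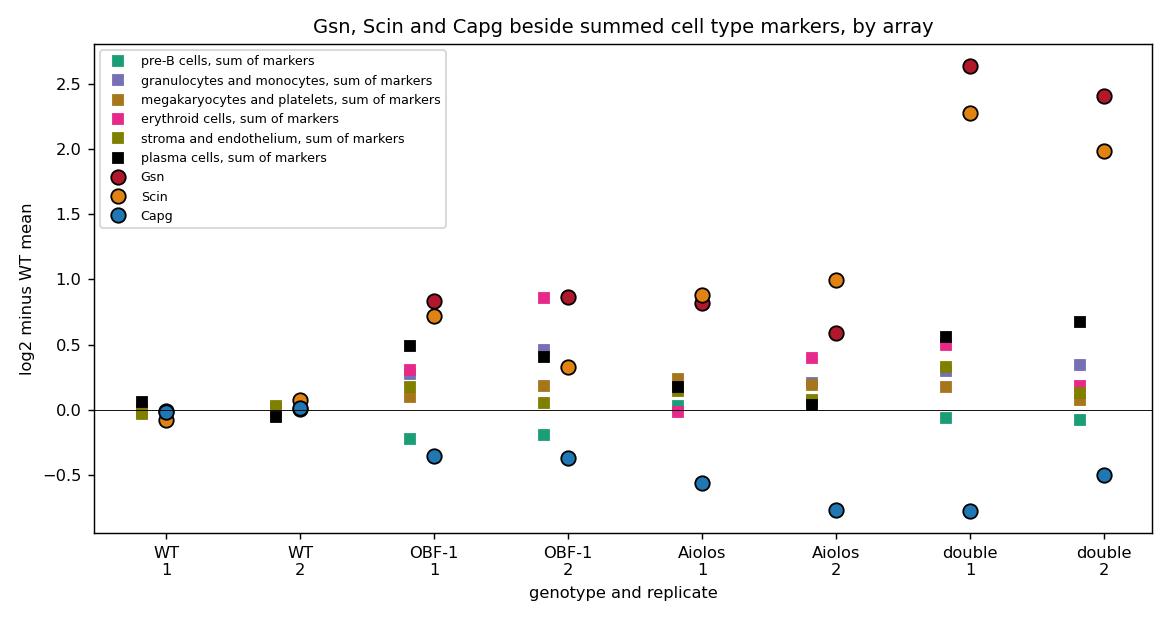
Gsn, Scin and Capg (circles, highest probe set) and summed marker lists (squares, drawn just to the left) on each array, as log2 difference from the WT mean. The marker sums stay within 0.86 of WT, while Gsn and Scin stand between 1.98 and 2.64 on the double-mutant arrays.

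Other actin genes were read from 9 lists by role, with 99 of 122 genes measured at 1 probe set each. In the double mutant against WT 6 of the 99 were higher and 12 were lower, against 4.9% of genes higher and 4.13% lower across the array. The median of the 99 was -0.03 on the log2 scale, beside 0.01 over all genes. The count fell to 6 without WT replicate 1, 9 without WT replicate 2, 8 without double-mutant replicate 1 and 10 without double-mutant replicate 2. OBF-1 against WT gave 3 higher and 2 lower (1.15% and 1.12% across the array), and Aiolos against WT 2 higher and 3 lower (1.02% and 0.767%). The first of these was 2 or 3 calls without any 1 WT or OBF-1 array, and the second 1 call without WT replicate 1 or Aiolos replicate 1 and 3 without WT replicate 2, Aiolos replicate 2 or either OBF-1 array.

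Within station 1 the double mutant against Aiolos gave 3 higher and 2 lower (1.92% and 1.49%), and 2 calls without Aiolos replicate 2. The double mutant against OBF-1 gave 1 higher and 5 lower (2.9% of genes called in either direction), with 1 call without OBF-1 replicate 1 and 2 without OBF-1 replicate 2 or double-mutant replicate 1. Aiolos against OBF-1 gave 2 higher and 4 lower (3.13%), with 3 calls without Aiolos replicate 2. The interaction gave 0 of 99 with limma, 9 at an unadjusted p under 0.05, against 0.161% of genes called.

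Pfn2, a profilin that binds actin monomers, was the one gene of these lists among the 5 nearest to Scin in pattern. It read 108.5 and 101.8 in WT, 143.2 and 157.3 in OBF-1, 205.4 and 174.5 in Aiolos, and 341.0 and 366.3 in the double mutant, with no overlap between genotypes. Pfn2 rose by 0.51 in OBF-1 (limma adjusted p = 0.0273), 0.85 in Aiolos (0.00332), 1.75 in the double mutant against WT (1.07e-06) and 0.90 against Aiolos (0.000424). The other 3 monomer-binding genes were not called in those comparisons.

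Fmn2, a formin that nucleates filaments, was low on all 4 arrays lacking OBF-1. It read 218.5 and 148.3 in WT and 134.9 and 244.7 in Aiolos, but 29.0 and 23.6 in OBF-1 and 29.3 and 30.9 in the double mutant. Vcl, the gene of vinculin, which links actin to adhesions, was higher in OBF-1 by 0.82 (limma adjusted p = 0.00227), in the double mutant by 0.67 (0.00306) and against Aiolos by 0.57 (0.0174).

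Among the disassembly genes outside the gelsolin family 4 of 15 were lower in the double mutant than in WT and 0 were higher, where 4.13% of all genes were lower and 4.9% higher. The largest were Twf2, which encodes a twinfilin that binds monomers and caps ends, at -0.89 (limma adjusted p = 0.00411), Coro1a, the coronin of blood cells, at -0.57 (0.00534), and Pdxp, a phosphatase that activates cofilin, at -0.53 (0.0201). Twf2 read 154.7 and 161.3 on the Aiolos arrays and 111.7 and 173.9 on the 2 double-mutant arrays, so its spread on the latter was wide. The comparison of the double mutant with WT crosses the stations. Within station 1, 0 of the 15 were called between the double mutant and Aiolos, with 4 at an unadjusted p under 0.05 by limma. Within station 2, 0 were called in OBF-1 against WT, with 1 under 0.05. Across the array 1.92% and 1.15% of genes were called higher, and 1.49% and 1.12% lower.

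The cross-linking and membrane linkage genes, 30 in number, had 3 higher and 4 lower in the double mutant against WT, beside 4.9% and 4.13% of all genes. Besides Vcl they included Evl, an Ena/VASP protein, at -0.52 (limma adjusted p = 0.00648) and Marcksl1 at -0.48 (0.00944). Evl stood at -0.70 in Aiolos against WT, and read 369.7 and 386.6 in Aiolos and 411.6 and 450.2 in the double mutant. Of 19 genes of the Arp2/3 complex and its activators Brk1 was lower in the double mutant than in WT by 0.50 (0.00497). Cyfip2, like Brk1 a part of the WAVE complex, was higher there by 0.34 (0.0481) and by 0.55 against Aiolos (0.00809). Of the formins Fmnl1 was higher by 0.39 (0.0296).

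Of the 6 genes of actin itself 0 were called in any of the 7 comparisons by limma, with 0 or 1 at an unadjusted p under 0.05. The largest shares of all genes called were 4.9% higher and 4.13% lower, in the double mutant against WT. Actb had means of 8527 to 9588 and Actg1 of 4085 to 5000, the latter at -0.29 in the double mutant (adjusted p = 0.0658). Of 11 capping genes outside the family 0 were called in the double mutant against WT, beside these same shares, with 1 at an unadjusted p under 0.05. Add2, an adducin, was higher in OBF-1 by 0.44 (limma adjusted p = 0.0366) and in Aiolos by 0.46 (0.0380). It read only 38.0 to 56.0 over all arrays, and its Aiolos call crosses the stations. The partners of flightless, Lrrfip1 and Lrrfip2, were at -0.32 (adjusted p = 0.175) and -0.04 (0.878) in the double mutant.

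**Figure D5:**
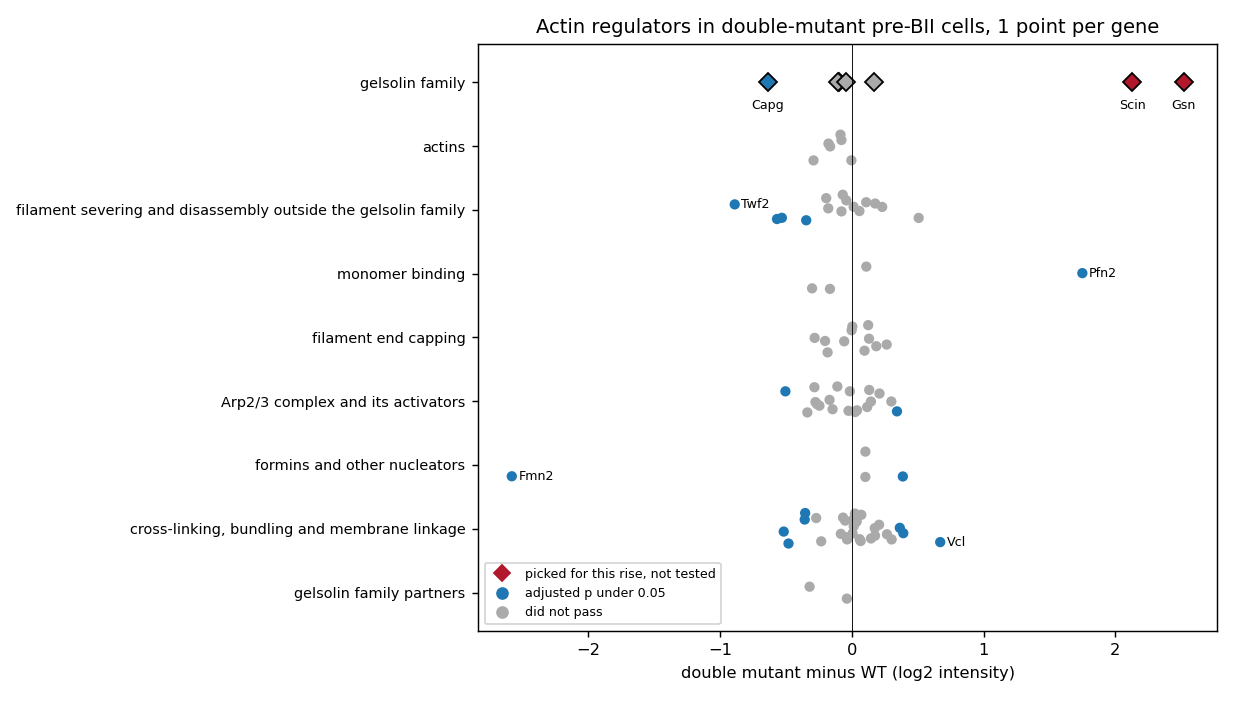
Log2 difference of the double mutant from WT for the gelsolin family (diamonds, 1 probe set a gene) and for the 91 genes of 8 actin lists (circles, 1 point a gene). Blue marks an adjusted p under 0.05 and red the genes picked for this difference. Gsn and Scin lie at 2.52 and 2.13, Pfn2 at 1.75, Capg at -0.64 and Fmn2 at -2.58, and most other genes lie near 0.

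The genes most like Gsn and Scin were found by the root mean square distance of the log2 differences from the WT mean over the 6 mutant arrays, among 6242 genes that reached 100 in some genotype. Nearest to Gsn were Lef1 (0.31), Tspan2 (0.35), Itih5 (0.35), Scin (0.36) and Car3 (0.37). Nearest to Scin were Tnfrsf19 (0.18), Lef1 (0.21), Ahnak (0.29), Fzd9 (0.31) and Pfn2 (0.31). Lef1, a transcription factor of the Wnt pathway that is known from early B cells, stood on both lists, with log2 differences of 0.43 in OBF-1, 0.87 in Aiolos and 2.26 in the double mutant. The distances rest on arrays of 3 genotypes against the same WT mean, so they describe likeness of pattern only. Gsn and Scin were both picked for their rise on the double-mutant arrays, which enter the distance. Their nearness to each other was therefore largely set by that choice. Scin also reached 100 only in the double mutant, so it was among the genes compared through that group alone.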

How the data were processed

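RNA of pre-BII cells was hybridised to 8 MOE430A GeneChips. The deposited values are intensity estimates on a linear scale, which the authors obtained by RMA, per the labels, with no version named. RMA subtracts background, equalizes the distributions of the arrays and combines the probes of a probe set. Their log2 was taken here. Of 22690 probe sets 64 controls were left out. Names came from GEO's platform annotation, updated by gene ID: 20380 probe sets had 1 symbol, 20351 of these matched, 691 had several and 1555 none. For genes outside the family the probe set of highest mean intensity was used, which gave 12393 genes.

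All 8 arrays entered 1 linear model of limma 3.58.1 (R 4.3.3), in which every genotype had its own mean and eBayes moderated the variances (prior degrees of freedom 7.69, residual 4). The scripts were checked on simulated data. Adjusted p-values are limma's, and intervals are 95%. The number of arrays limits the precision. If the labels are right that no separate pools were made, p-values measure only the spread between these samples, which may be technical. The Aiolos transcript was not analysed here.

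The genes named were every family probe set, in each actin list up to 3 called genes with the largest difference in OBF-1 against WT, the double mutant against WT or the double mutant against Aiolos, up to 2 of highest intensity beside a list with none called, and the 5 nearest genes to Gsn and to Scin. Members and lists were chosen with earlier results of these data known. RefSeq promoters (GRCm38.p6) were cut to the 250 bases before each start; Svil's is not reported. The genes of 1 of the 9 actin lists enter the counts but are not reported here. Alternatives were other scalings, a filter at 100 units, other variance models, a replicate block, only the compared genotypes, 16 added units, another probe set rule and each array left out.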

Additional observations from a re-analysis of the deposited data

How the results depend on the processing

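No called family probe set changed direction under any alternative run. For the actin lists the alternatives give counts of calls only. Without moderation of variances, where 4 residual degrees of freedom stand alone, family calls were 0 in OBF-1 against WT, Aiolos against WT, the double mutant against WT and Aiolos against OBF-1, and actin gene calls were 0 in OBF-1 against WT, Aiolos against WT, the double mutant against Aiolos, the double mutant against OBF-1 and Aiolos against OBF-1, and 2 in the double mutant against WT. Array-wide that fit called 9 probe sets in OBF-1 against WT, 6 in Aiolos against WT and 359 in the double mutant against WT. It called 22 in the double mutant against Aiolos, 26 against OBF-1 and 13 in Aiolos against OBF-1. The main fit called 472, 417, 1938, 667, 596 and 626 of 22626 in the same order, so calls fell across the array. Actin gene calls in Aiolos against WT were 3 after a further quantile normalization, 3 with only the compared genotypes and 3 with 16 units added. Array-wide calls were then 388, 251 and 289. Family calls in Aiolos against OBF-1 were 0 with only the compared genotypes, where 561 probe sets were called. The cause was not tested.

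With 1 array left out, family calls ranged from 3 to 5 in OBF-1 against WT, from 0 to 4 in Aiolos against WT and from 0 to 1 in Aiolos against OBF-1, and stayed at 1 in the double mutant against WT. Actin gene calls ranged from 2 to 5 in OBF-1 against WT, from 1 to 5 in Aiolos against WT, from 6 to 16 in the double mutant against WT, from 2 to 5 in the double mutant against Aiolos, from 1 to 6 in the double mutant against OBF-1 and from 3 to 6 in Aiolos against OBF-1. Leaving out an array of a compared genotype leaves 1 array there, and calls fell across the whole array in every such run. The lower ends of these ranges are therefore not particular to the family or the actin genes. Counts of 0 stayed at 0 in every alternative run.

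The replicate numbers do not pair the arrays: deviations of same-numbered arrays from their group means correlated at -0.0875 to 0.103. The fit with the replicate number as a replicate block gave the same counts, such as 5 family calls in OBF-1 against WT and 18 actin genes in the double mutant against WT, and changed no family call. Among single family probe sets, 1158 tested values kept their side of the threshold over all alternatives, 38 lost the call and 1 gained it, and of the values given as descriptions 419 moved by less and 14 by more than the spread between replicates. Of 1021 values that passed neither way 53 had another sign. Low signals such as Scin, Vil1, Avil and the dimmer Gsn probe sets are the least precise, and 2 arrays per genotype limit every comparison.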
